A study of Mus musculus with 12 samples.

Results

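PD1-low T helper (Th) cells from lymph nodes were compared with naive CD4 T cells from spleen, using 4 of the 12 arrays of the series: 2 arrays of PD1-low Th cells and 2 arrays of naive cells, chosen by the titles of the samples. The study sorted CD4 T cells by flow cytometry, pooled them over mice, and measured RNA on Affymetrix mouse arrays after amplification from 20 ng of total RNA. Its other 8 arrays held lymph node cells positive for CXCR5, the receptor that guides cells into B cell follicles. These were Venus-high follicular helper T cells (Tfh, 3 arrays), Venus-low Tfh (3 arrays) and PD1-intermediate Th cells (2 arrays).

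All mice carried the S1pr2V/+ genotype, in which 1 copy of S1pr2 reports as the fluorescent protein Venus, and all labels give a subcutaneous immunization with CGG (chicken gamma globulin) in CFA (complete Freund's adjuvant) 10 days before sorting. PD1-low Th cells were CD4+, CXCR5-low, PD1-low, CD44-high and Dump-, from lymph nodes of 6 mice (array 1) and 4 mice (array 2). Naive cells were CD4+, CD44-low and Dump-, from spleens of 2 mice for each array. The Tfh pools (4, 6 and 4 mice) were CXCR5+, PD1-high and CD44-high, and the PD1-intermediate pools (4 mice each) were CXCR5+ and CD44-high. The markers of the Dump channel are not listed in the labels. The design text also mentions control mice, but both naive samples are labelled as coming from immunized mice. Tissue and cell state therefore differed together between PD1-low Th and naive cells and cannot be told apart. The labels do not say whether the pools came from separate experiments, so the p-values measure only the spread between these arrays, and the small number of arrays limits their precision.

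Naive CD4 T cells are resting cells that recirculate between blood, spleen and lymph nodes under receptors such as CCR7 and S1PR1, and depend on interleukin 7 for survival. After antigen they gain CD44, and some become Tfh cells that help B cells. A CD44-high population without CXCR5 and PD1 can hold recently activated cells, memory cells, effector cells of the Th1 and related types, and FOXP3+ regulatory T cells. In RNA from a sorted pool, a lower fraction of cells of a type and less RNA per cell cannot be told apart.

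The deposited values are log2 signals from GCRMA, and log2 5 was used as the level below which a probe set was treated as near background. The arrays fell into 3 sets by the shape of their value distributions (75% quantiles of 8.50 to 8.55, 8.68 to 8.76 and 9.39 to 9.42). The labels do not name these sets. PD1-low Th 1 lay in set 2 and PD1-low Th 2 in set 3, whereas naive 1 lay in set 1 and naive 2 in set 2. PD1-low Th 1 and naive 2 were thus the only pair of these cells within 1 set, and their difference is given beside the fit as a value without a test. Over the 9892 genes tested the median difference, PD1-low Th minus naive, was 0.28 log2 units in the fit without the array set, -0.04 with the array set as a term and 0.01 in the pair. Differences below are to be read against these shifts. In set 2, 3289 probe sets stood over 3 log2 units away from both other sets. Of the genes tested, 507 were measured by a probe set displaced in set 2. None of the genes past the test in either fit was among these 507. Sets 1 and 3 held 542 and 233 probe sets displaced in the same way, and the genes past the test were not checked against those.

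RNA of the gate genes is given first, as a check of the labels. Cd44 was 11.37 and 12.18 on the PD1-low Th arrays, against 6.56 and 7.46 on the naive arrays. Its difference of 4.77 ± 0.72 (SE) missed the threshold in the fit without the array set (limma, adjusted p = 0.0658) and passed with it (3.87, adjusted p = 0.000977). Cxcr5 stood at 5.18 and 6.75 in PD1-low Th cells, against 2.51 and 2.90 in naive cells, and at 13.14 to 14.28 on the CXCR5+ arrays. Relative to the mean of the CXCR5+ groups it fell by 7.89 log2 units in PD1-low Th cells (adjusted p = 4.87e-06). Pdcd1, which encodes PD1, read 6.83 and 7.35 in PD1-low Th cells, against 4.55 and 6.49 in naive cells, a difference that did not pass (1.57, adjusted p = 0.958). The CXCR5+ arrays lay at 12.59 to 14.88 for Pdcd1. Cd4 was at 13.61 and 14.12 in PD1-low Th cells, against 13.04 and 13.68 in naive cells.

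PD1-low Th 1 lay closer to naive cells than to Tfh cells over the genes tested. Within array set 2, 466 genes (4.71%) were over 1 log2 unit apart between PD1-low Th 1 and naive 2, 317 of them higher in PD1-low Th 1 (3.2%) and 149 lower (1.51%). PD1-low Th 1 was over 1 log2 unit from Venus-low Tfh 2 in 2242 genes (22.7%) and from Venus-high Tfh 2 in 2417 genes (24.4%). Venus-low Tfh 2 and naive 2 were as far apart, at 2405 genes (24.3%). These are counts for single arrays of 1 set, with no test.

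Against naive cells, 8 of 9892 genes passed the test (0.0809%), 7 of them higher in PD1-low Th cells (0.0708%) and 1 lower (0.0101%). The 7 were Cd83, Sik1, Nrp1, Egln3, Il2rb, Art4 and Zcchc24, and the 1 lower gene was Auts2. All 8 also passed with the array set as a term, and all 8 had the same sign in the pair of set 2. The pair is part of both fits, so its sign gives no independent check. The list holds surface molecules of activated and regulatory T cells, an interleukin 2 receptor chain and an oxygen sensor, as described next.

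**Figure D1:**
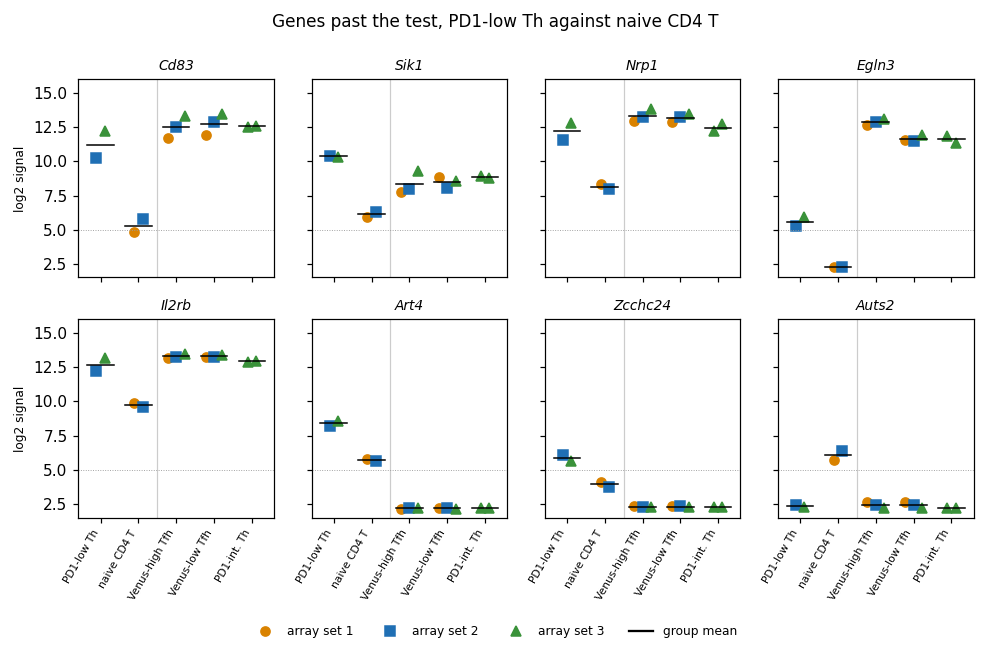
Log2 signal of the 8 genes past the test on every array, with PD1-low Th first, naive cells second and the 3 CXCR5+ groups right of the grey line; symbols mark the array set, bars the group means and the dotted line log2 5. Cd83, Sik1, Nrp1 and Il2rb separate PD1-low Th from naive cells at high signal, Egln3 reaches only 5.29 and 5.91 in PD1-low Th cells, and Art4 is highest in PD1-low Th cells and lowest on the CXCR5+ arrays.

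Cd83, a surface protein of activated lymphocytes and dendritic cells, had the largest difference of the 8. It read 10.22 and 12.24 in PD1-low Th cells, against 4.80 and 5.75 in naive cells. The difference was 5.95 ± 0.78 log2 units (SE, adjusted p = 0.0478), or 5.03 with the array set as a term (adjusted p = 0.0034) and 4.46 in the pair. No PD1-low Th array overlapped a naive one. Cd83 passed in 10 of 21 alternatives of the processing. It did not pass with no filter on low values, with log2 6 as the minimum or with a gene's probe sets averaged. On the CXCR5+ arrays Cd83 lay at 11.75 to 13.48, and the difference of PD1-low Th cells from those groups did not pass without the array set (-1.38, adjusted p = 0.263) and passed with it (-1.48, adjusted p = 0.00451).

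Nrp1 encodes neuropilin 1, a semaphorin and VEGF co-receptor found on many thymus-derived regulatory T cells of the mouse and on some activated T cells. Its signal was 11.59 and 12.82 in PD1-low Th cells, against 8.34 and 7.95 in naive cells. The groups were separate, by 4.06 ± 0.45 log2 units (SE, adjusted p = 0.0208), and by 3.64 in the pair. Nrp1 did not pass in 9 of 21 alternatives, among them the one with a gene's probe sets averaged. The CXCR5+ arrays lay between 12.19 and 13.82. PD1-low Th cells did not differ from them past the threshold without the array set (-0.80, adjusted p = 0.263) and were lower with it (-0.75, adjusted p = 0.0463).

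Il2rb encodes the beta chain shared by the interleukin 2 and interleukin 15 receptors, which memory and regulatory T cells carry. It stood at 12.23 and 13.15 in PD1-low Th cells, against 9.86 and 9.58 in naive cells. The rise was 2.97 ± 0.31 log2 units (SE, adjusted p = 0.0152), and 2.65 in the pair. Il2rb did not pass in 8 of 21 alternatives, among them the one with a gene's probe sets averaged. Here too the CXCR5+ arrays, at 12.92 to 13.50, did not differ past the threshold from PD1-low Th cells (-0.49, adjusted p = 0.329; -0.44 with the array set as a term, adjusted p = 0.0778).

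Sik1, a salt-inducible kinase induced by cAMP and other acute signals, behaved differently from these. PD1-low Th cells had 10.38 and 10.34, against 5.95 and 6.30 in naive cells, a difference of 4.24 ± 0.49 (SE, adjusted p = 0.0251). The CXCR5+ arrays were lower than PD1-low Th cells, at 7.79 to 9.31 (1.79 log2 units, adjusted p = 0.0194). The pair of set 2 gave 4.08 log2 units against naive cells. Sik1 lost its call against naive cells in 8 of 21 alternatives, among them the one with a gene's probe sets averaged.

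Egln3 encodes a prolyl hydroxylase (PHD3) that uses oxygen to mark HIF factors for destruction. In PD1-low Th cells it reached 5.29 and 5.91, just above the background level, against 2.25 and 2.30 in naive cells. Because both naive arrays were below log2 5, the size is a bound: at least 1.51-fold higher. The adjusted p of 0.0104 belongs to the values as deposited, and with a floor at log2 5 Egln3 did not pass. Most of its range lay elsewhere, since the CXCR5+ arrays read 11.36 to 13.12 and PD1-low Th cells were lower than them by 6.45 log2 units (adjusted p = 1.38e-06).

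Art4, which encodes an ADP-ribosyltransferase known in humans as the carrier of the Dombrock blood group, was highest in PD1-low Th cells. It read 8.24 and 8.59 in PD1-low Th cells, against 5.77 and 5.67 in naive cells (2.69 ± 0.20, SE, adjusted p = 0.00243). All CXCR5+ arrays were near background, at 2.16 to 2.19, so PD1-low Th cells were at least 10.6-fold higher than those groups (adjusted p = 1.19e-07). Zcchc24, a gene for a zinc finger protein, followed the same order at lower signal. Its values were 6.05 and 5.63 in PD1-low Th cells, against 4.11 and 3.76 in naive cells (at least 1.79-fold higher, adjusted p = 0.0252 for the values as deposited), and 2.25 to 2.34 on the CXCR5+ arrays. Zcchc24 passed in 7 of 20 alternatives, and not with the floor at log2 5 or with any single array left out. Auts2, a gene named for its links to neural development, was at background in PD1-low Th cells (2.41 and 2.25), against 5.70 and 6.39 in naive cells. It was at least 2.06-fold lower in PD1-low Th cells (adjusted p = 0.00243 for the values as deposited), did not pass with the floor at log2 5, and the CXCR5+ arrays were at background as well (2.22 to 2.62).

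Promoters were available in the RefSeq tables (build GRCm38.p6) for 4 of the 8 genes, and the 250 bases before the start of Nrp1 and Egln3 are shown because they stand for the receptor and the enzyme among the genes that passed. They are read 5′ to 3′ on the strand of the gene. Capitals mark a KLF motif (CCACCC or its reverse complement). Nrp1 lies on chr8:128358823-128359072, plus strand, and Egln3 on chr12:54203875-54204124, minus strand.
Nrp1: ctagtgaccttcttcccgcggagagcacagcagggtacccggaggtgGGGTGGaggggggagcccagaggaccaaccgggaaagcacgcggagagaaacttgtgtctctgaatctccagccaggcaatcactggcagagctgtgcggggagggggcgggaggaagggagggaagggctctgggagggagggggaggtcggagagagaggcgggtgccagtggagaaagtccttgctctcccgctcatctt
Egln3: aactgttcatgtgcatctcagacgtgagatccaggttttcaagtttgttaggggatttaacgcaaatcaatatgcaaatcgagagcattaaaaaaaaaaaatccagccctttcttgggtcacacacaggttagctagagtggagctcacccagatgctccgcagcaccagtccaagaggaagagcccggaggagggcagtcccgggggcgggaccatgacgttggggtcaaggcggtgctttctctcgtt

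Both strands were searched for STAT (TTCNNNGAA), forkhead (GTAAACA), AP-1 (TGANTCA) and KLF (CCACCC). In the Nrp1 window a KLF match spanned the bases 203 to 198 before the start, and no other motif was found there. The Zcchc24 window held 2 KLF matches, and the Egln3 and Art4 windows had no match to any of the 4 motifs. KLF matches occur in 28.1% of the 32851 promoters of this length, STAT in 7.02%, AP-1 in 6.75% and forkhead in 3.17%. A match is a description of the letters and not of binding.

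With the array set as a term, 56 genes passed (0.566%), 43 higher in PD1-low Th cells (0.435%) and 13 lower (0.131%). All 56 had the same sign in the pair of set 2, which is part of that fit and so gives no independent check. Of the 43 higher genes, 16 were also higher in PD1-low Th cells than in the CXCR5+ groups in the same fit, 24 were lower than in those groups, and 3 did not pass in that comparison. In the fit without the array set these counts were 8, 11 and 24. Over all genes, 15.2% were higher and 18.8% lower than in the CXCR5+ groups with the term, and 3.7% and 6.62% without it. Both comparisons use the same PD1-low Th arrays, so they are not independent. Cd86, a ligand of CD28 and CTLA4, was among the 43. It read 6.60 and 8.52 in PD1-low Th cells, against 2.22 and 3.03 in naive cells. The CXCR5+ arrays lay at 2.17 to 4.01. Since both other kinds of cells were under log2 5, Cd86 was at least 5.89-fold higher in PD1-low Th cells than in naive cells (adjusted p = 0.0658, and 0.0495 with the term) and than in the CXCR5+ groups (adjusted p = 0.00157). Tnfsf11, the RANK ligand gene, had 7.01 and 9.07 in PD1-low Th cells, against 2.55 and 4.22 in naive cells, with the CXCR5+ arrays higher still at 10.29 to 12.66. Ppm1l, a protein phosphatase gene, was at 8.09 and 9.13 in PD1-low Th cells, against 6.01 and 6.06 in naive cells, and the CXCR5+ arrays were near background (2.67 to 3.46).

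**Figure D2:**
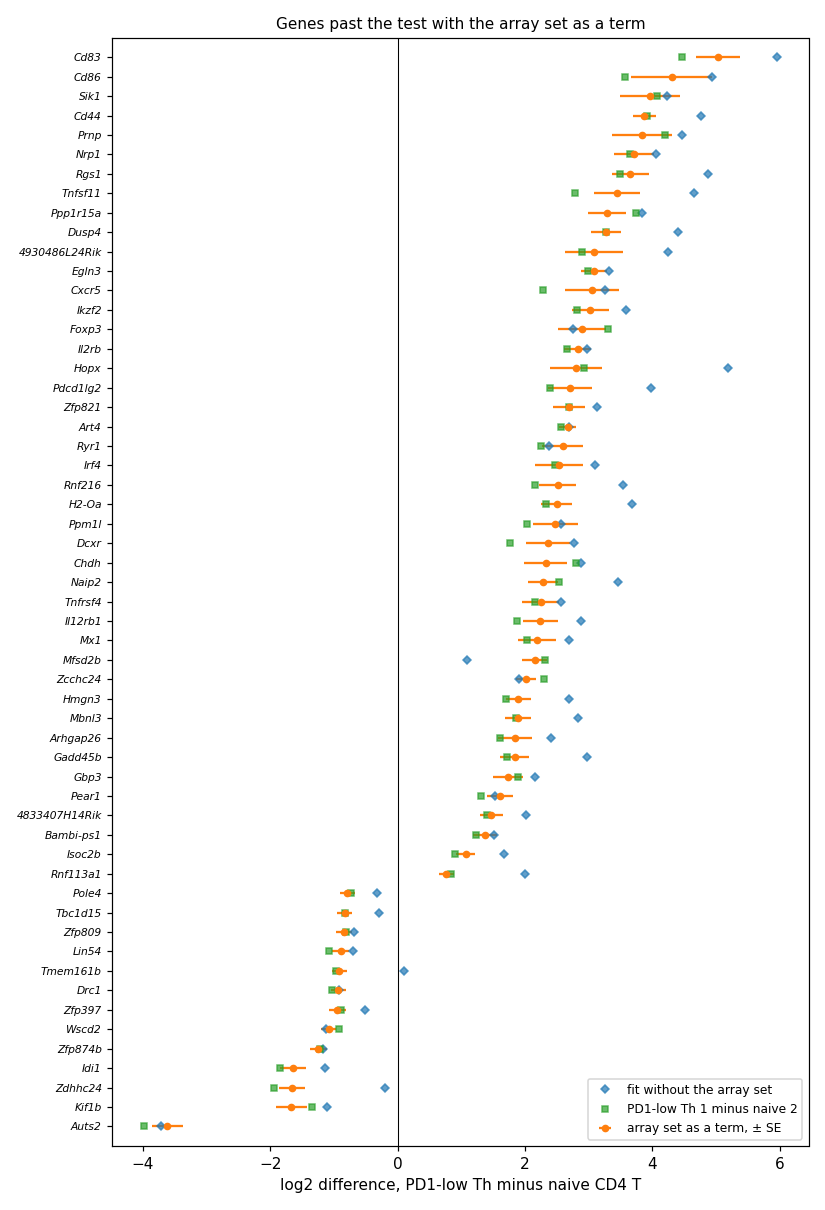
Log2 difference, PD1-low Th minus naive, of the 56 genes past the test with the array set as a term: circles with SE for that fit, diamonds for the fit without the array set, and squares for the pair PD1-low Th 1 minus naive 2, drawn as fitted also where 1 group was under log2 5, as in Cd86 and Dusp4. Cd83 lies at 5.03 with the term and Auts2 at -3.62, and for Tmem161b and Mfsd2b the fit without the term gave 0.10 and 1.08 against -0.92 and 2.15 with it.

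Among the 13 lower genes of that fit, Idi1, an enzyme of isoprenoid and cholesterol synthesis, read 8.83 and 9.52 in PD1-low Th cells, against 9.95 and 10.69 in naive cells (-1.64 with the term, adjusted p = 0.03; -1.14 without it, adjusted p = 0.958). Drc1 and Wscd2 were lower than in naive cells and higher than in the CXCR5+ groups. Drc1, known for the dynein regulation of cilia, had 8.04 and 7.95 in PD1-low Th cells, against 8.77 and 9.06 in naive cells and 2.11 to 2.16 on the CXCR5+ arrays. Wscd2 had 5.54 and 5.29 in PD1-low Th cells, against 6.63 and 6.47 in naive cells and 2.11 to 2.16 on the CXCR5+ arrays. Drc1 thus lay nearer to naive cells than to the CXCR5+ groups. For Wscd2, which stood just above log2 5 in PD1-low Th cells, the distance to the CXCR5+ groups is a bound, at least 1.33-fold.

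Genes of regulatory T cells had the highest median among the lists with at least 5 genes tested. Of 21 measured members, 1 passed (Nrp1), where 0.0708% of all genes were higher. With the array set as a term 4 passed (Foxp3, Ikzf2, Nrp1 and Tnfrsf4), where 0.435% were higher. None was lower in either fit, but only 0.0101% and 0.131% of all genes were, so that count says little. The median difference was 2.74 log2 units, against 0.28 over all genes; with the term it was 1.57, and in the pair 1.30. At an unadjusted p under 0.05, 16 of the 21 were higher, where the share over all genes was 3.86%. This list overlaps the list of genes induced by interleukin 2, and the members were taken with results of these data known.

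Foxp3, the transcription factor that defines regulatory T cells, read 11.52 and 12.34 in PD1-low Th cells, against 10.14 and 8.22 in naive cells. Its difference was 2.75 ± 0.57 (SE, adjusted p = 0.217), 2.89 with the array set as a term (adjusted p = 0.0353) and 3.31 in the pair. The naive arrays were thus not at background for Foxp3, and the 2 differed from each other by more than the PD1-low Th arrays did. Against the CXCR5+ groups, Foxp3 was higher in PD1-low Th cells (2.54 log2 units, adjusted p = 0.0071), with a CXCR5+ range of 5.73 to 11.34 whose low end belongs to Venus-high Tfh. Ikzf2, which encodes Helios, a factor of thymus-derived regulatory T cells, had 11.97 and 13.35 in PD1-low Th cells, against 9.01 and 9.16 in naive cells (3.58, adjusted p = 0.0658; 3.02 with the term, adjusted p = 0.0119). Tnfrsf4, the costimulatory receptor OX40, had 11.56 and 12.97 in PD1-low Th cells, against 10.00 and 9.41 in naive cells (2.25 with the term, adjusted p = 0.0353).

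Several well known members did not pass in either fit although their groups did not overlap. Both PD1-low Th arrays were above both naive arrays for 18 of the 21 members, where the share over all genes was 29.1%. Ctla4, the inhibitory receptor for CD80 and CD86, was at 9.91 and 12.52 in PD1-low Th cells, against 7.66 and 5.28 in naive cells (4.75 ± 1.08, SE, adjusted p = 0.319). Il2ra, the alpha chain of the interleukin 2 receptor (CD25), had 11.43 and 12.73 in PD1-low Th cells, against 6.87 and 7.67 in naive cells (4.81 ± 1.26, SE, adjusted p = 0.46). Both PD1-low Th arrays were above both naive arrays by several log2 units, and the spread between arrays of a group was wide. Il2ra exceeded the CXCR5+ groups, which lay at 3.65 to 10.69 (4.28 log2 units, adjusted p = 0.0267). Socs2, a feedback inhibitor of cytokine signalling, had 8.73 and 11.72 in PD1-low Th cells, against 5.37 and 5.49 in naive cells. It was above the CXCR5+ groups too (5.59 log2 units, adjusted p = 0.00522). Of the 21 members of the list, 6 were higher than in the CXCR5+ groups and 0 lower, with a median difference of -0.695. Over all genes, 3.7% were higher and 6.62% lower. With the array set as a term 6 members were higher and 6 lower, where 15.2% and 18.8% of all genes were. The CXCR5+ arrays lay at 12.79 to 13.85 for Ikzf2 and at 10.66 to 12.86 for Ctla4.

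Genes induced by interleukin 2 and STAT5 gave 1 of 25 past the test (Il2rb), 4 with the array set as a term (Il2rb, Ikzf2, Tnfrsf4 and Irf4), where 0.0708% and 0.435% of all genes were higher, and a median difference of 1.06 (0.46 with the term, 0.44 in the pair). Irf4, a factor induced by antigen receptor signals, read 11.23 and 12.80 in PD1-low Th cells, against 9.08 and 8.76 in naive cells (2.54 with the term, adjusted p = 0.0495). Of 28 cytokine receptors, Il2rb passed, and Il12rb1 joined it with the term: the receptor chain for interleukins 12 and 23 had 5.59 and 7.26 in PD1-low Th cells, against 3.38 and 3.72 in naive cells. The median of the 28 was 0.42, and -0.01 in the pair.

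Immediate early genes and genes of the T cell receptor response gave 1 of 38 past the test (Cd83), where 0.0708% of all genes were higher. With the array set as a term 5 passed (Cd83, Dusp4, Irf4, Gadd45b and Rgs1), where 0.435% were higher. The median difference of the list was 1.41, with 0.72 under the term and 0.98 in the pair. Of the 38, 29 had both PD1-low Th arrays above both naive arrays, where the share over all genes was 29.1%. Fos, which forms the AP-1 factor with Jun, read 12.97 and 13.13 in PD1-low Th cells, against 8.77 and 8.41 in naive cells (4.46 ± 0.75, SE, adjusted p = 0.117). Jun read 12.16 and 11.99 in PD1-low Th cells, against 8.92 and 8.06 in naive cells (3.59 ± 0.50, SE, adjusted p = 0.0658). Neither passed in either fit. Array 2 minus array 1 of PD1-low Th cells was 0.15 for Fos and -0.17 for Jun, so these arrays lay close together for both genes.

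Rgs1, which dampens chemokine receptor signals and is induced on activation, had 11.47 and 12.76 in PD1-low Th cells, against 6.50 and 7.99 in naive cells (3.65 with the term, adjusted p = 0.00597). Dusp4, a phosphatase that ends MAP kinase signals, had 6.71 and 7.99 in PD1-low Th cells, against 2.45 and 3.44 in naive cells (at least 5.1-fold higher; adjusted p = 0.217, and 0.00433 with the term). Ppp1r15a, a stress response gene outside this list, had 12.91 and 12.35 in PD1-low Th cells, against 8.42 and 9.16 in naive cells (3.29 with the term, adjusted p = 0.00941). Hspa1a, a heat shock gene, read 7.12 and 7.42 in PD1-low Th cells, against 3.76 and 2.35 in naive cells, and did not pass (adjusted p = 0.958, and 0.397 with the term). Klf4 read 8.83 and 10.36 in PD1-low Th cells, against 6.55 and 3.56 in naive cells, and did not pass either (adjusted p = 0.31).

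**Figure D3:**
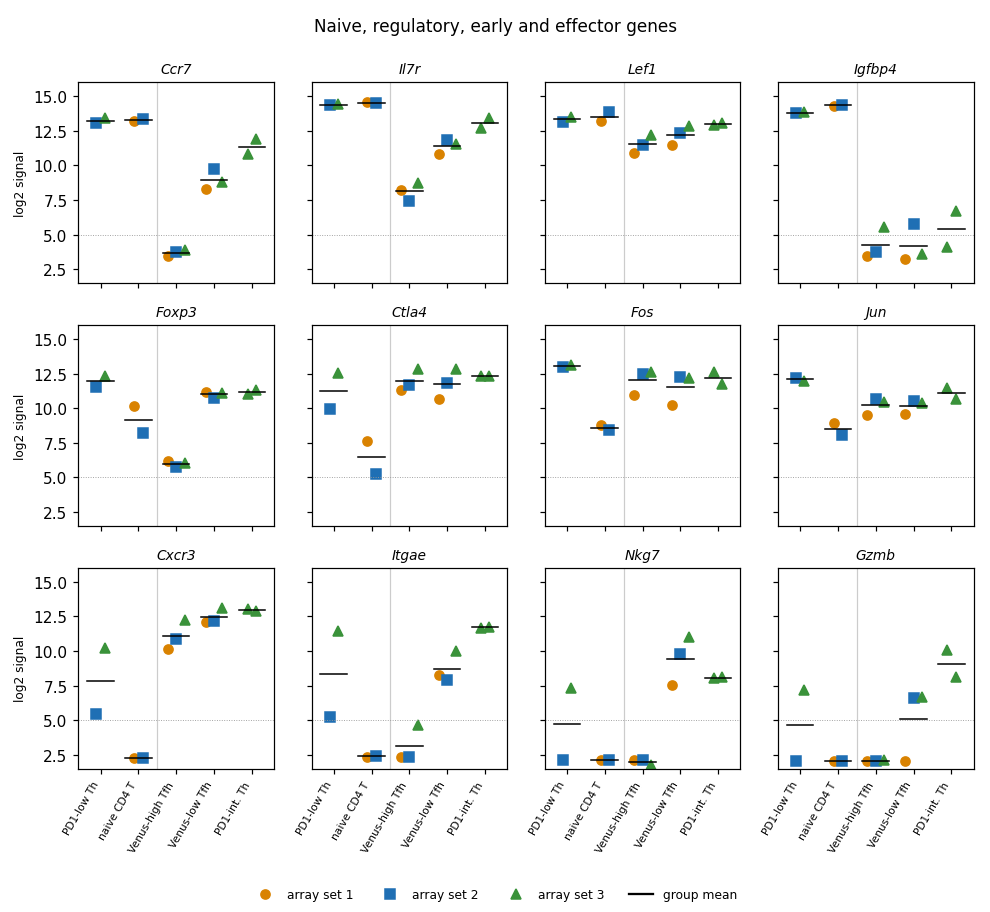
Log2 signal on every array of 4 genes of naive cells (top row), regulatory and early genes (middle row) and Th1, tissue homing and cytotoxic genes (bottom row), with PD1-low Th first, naive second and the CXCR5+ groups right of the grey line; bars are group means and the dotted line is log2 5. Ccr7, Il7r, Lef1 and Igfbp4 differ by less than 0.6 log2 units between the means of PD1-low Th and naive cells (with the array set as a term, Lef1 differs by -0.83 and Igfbp4 by -1.05), whereas Cxcr3, Itgae, Nkg7 and Gzmb are high on PD1-low Th array 2 and low on array 1.

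Genes of naive and quiescent T cells gave no call between PD1-low Th and naive cells. Of 27 measured members none passed in either direction by limma in either fit. At an unadjusted p under 0.05 there were none without the array set, and with it 2 were lower, Lef1 and Klf3, where 6.75% of all genes were lower. The median difference was 0.03, against 0.28 over all genes, and -0.26 with the array set as a term. Ccr7, the receptor for homing to T cell zones, had 13.07 and 13.41 in PD1-low Th cells, against 13.21 and 13.36 in naive cells (-0.04 ± 0.50, SE). Il7r, the interleukin 7 receptor chain, had 14.35 and 14.42 in PD1-low Th cells, against 14.56 and 14.50 in naive cells (-0.15 ± 0.47, SE). A p above the threshold does not show that the levels were equal, and the SE gives the size of difference that could go unseen.

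Set against the CXCR5+ groups, 12 of the same 27 genes were higher in PD1-low Th cells, where 3.7% of all genes were, and none was lower. Ccr7 was higher by 5.24 log2 units (adjusted p = 6.9e-05) and Il7r by 3.53 (adjusted p = 0.000427). These are distances from the mean of 3 groups that differed from each other. Ccr7 averaged 3.71 in Venus-high Tfh, 8.94 in Venus-low Tfh and 11.36 in PD1-intermediate Th cells. For Il7r the same means were 8.13, 11.40 and 13.04, so PD1-intermediate Th cells lay nearest to PD1-low Th cells for both genes. Igfbp4, a binding protein for insulin-like growth factors that marks naive T cells, had 13.76 and 13.83 in PD1-low Th cells, against 14.31 and 14.36 in naive cells and 3.23 to 6.71 on the CXCR5+ arrays. Lef1, a Wnt pathway factor kept by naive T cells, had 13.15 and 13.50 in PD1-low Th cells, against 13.22 and 13.83 in naive cells and 10.90 to 13.03 on the CXCR5+ arrays. With the array set as a term it did not pass against naive cells (-0.83, adjusted p = 0.0673), and the pair gave -0.68. Il7r and Igfbp4 had both PD1-low Th arrays below both naive arrays, by little beside their distance from the CXCR5+ arrays, and for Ccr7 and Lef1 the groups overlapped.

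Receptors for egress and T zone homing gave 0 of 11 past the test by limma in either fit. At an unadjusted p under 0.05 there were 0 without the array set. With it 1 of 11 was lower, Cxcr4 (9.09%), near the 6.75% over all genes. S1pr1, the receptor by which T cells leave lymphoid organs, had 9.37 and 9.61 in PD1-low Th cells, against 8.51 and 9.70 in naive cells, so the groups overlapped. It was 4.58 log2 units above the CXCR5+ groups (adjusted p = 0.00113), and Klf2, which drives S1pr1, was 3.81 above them (adjusted p = 0.00911). Klf2 itself had 9.59 and 11.07 in PD1-low Th cells, against 10.10 and 10.52 in naive cells.

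The 15 genes of T cell identity were at log2 5 or more on all arrays of both groups, and none passed. For the mitochondrial respiratory chain none of 23 passed (median 0.28, the same as over all genes), and none had an unadjusted p under 0.05 in the fit without the array set. Of 42 cell cycle genes none passed against naive cells by limma. At an unadjusted p under 0.05 there were 3 higher and 2 lower, where the shares of all genes were 3.86% and 0.455%. Mki67, the proliferation marker Ki-67, had 7.77 and 9.55 in PD1-low Th cells, against 7.15 and 7.15 in naive cells, and the CXCR5+ arrays lay at 12.61 to 14.39. Cdk1, the kinase of mitotic entry, had 3.01 and 5.56 in PD1-low Th cells, against 3.04 and 3.02 in naive cells. Of the 42 cell cycle genes, 28 were lower in PD1-low Th cells than in the CXCR5+ groups, where 6.62% of all genes were lower.

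Genes of the type I interferon response gave 0 of 32 past the test, 2 with the array set as a term (Mx1 and Gbp3) and 6 at an unadjusted p under 0.05, all higher, where the shares of all genes higher were 0.0708%, 0.435% and 3.86%. Mx1, an antiviral GTPase, had 10.45 and 11.23 in PD1-low Th cells, against 7.90 and 8.41 in naive cells (2.19 with the term, adjusted p = 0.0404). Gbp3, a guanylate-binding protein, had 11.86 and 12.95 in PD1-low Th cells, against 10.52 and 9.97 in naive cells (1.73 with the term, adjusted p = 0.0402). The median of the list was 0.82 (0.27 with the term).

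Effector genes showed their widest spread inside the PD1-low Th group. For Th1 and cytotoxic genes 0 of 20 passed, where 0.0708% of all genes were higher. With the array set as a term 2 passed (Il12rb1 and Hopx), where 0.435% were higher. Cxcr3, the chemokine receptor of Th1 cells, had 5.44 and 10.22 in PD1-low Th cells, against 2.31 and 2.30 in naive cells (at least 7.11-fold higher, but not past the test, adjusted p = 0.349). Gzmb, the granzyme B protease, had 2.06 and 7.18 in PD1-low Th cells, against 2.06 and 2.07 in naive cells. Nkg7, a gene of cytotoxic granules, had 2.14 and 7.35 in PD1-low Th cells, against 2.14 and 2.13 in naive cells. For Gzmb and Nkg7, PD1-low Th array 1 was thus at background and level with the naive arrays, so any difference rests on array 2.

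The same pattern held in tissue homing receptors. Of these 0 of 15 passed, and 1 with the term (Cd44), where 0.0708% and 0.435% of all genes were higher. Itgae, the integrin chain CD103 that binds epithelial E-cadherin, had 5.24 and 11.41 in PD1-low Th cells, against 2.34 and 2.42 in naive cells. Ccr6, a receptor of Th17 and some regulatory cells, had 4.73 and 9.22 in PD1-low Th cells, against 2.61 and 2.65 in naive cells. Ccr2, a receptor for inflammatory chemokines, had 3.92 and 8.86 in PD1-low Th cells, against 4.49 and 2.16 in naive cells. PD1-low Th 2 was the higher array for each.

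PD1-low Th array 2 also lay in a different array set from array 1, so their gap was set beside the gap between Tfh arrays of the same 2 sets. Values under log2 5 were set to log2 5 for this, which holds down the gaps of genes near background. For Cxcr3 the PD1-low Th gap of 4.79 log2 units compared with 1.17 in Tfh, for Itgae 6.17 with 1.06, and for Nkg7 2.35 with 0.63. Over all genes, 70 (0.708%) had a PD1-low Th gap more than 2 log2 units above the Tfh gap. Among Th1 and cytotoxic genes these were 3 of 20, among inflammatory and tissue homing receptors 4 of 15, and among regulatory T cell genes 3 of 21. The array 1 pool came from 6 mice and the array 2 pool from 4, and the part of the pool or of the array set in this spread was not tested.

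**Figure D4:**
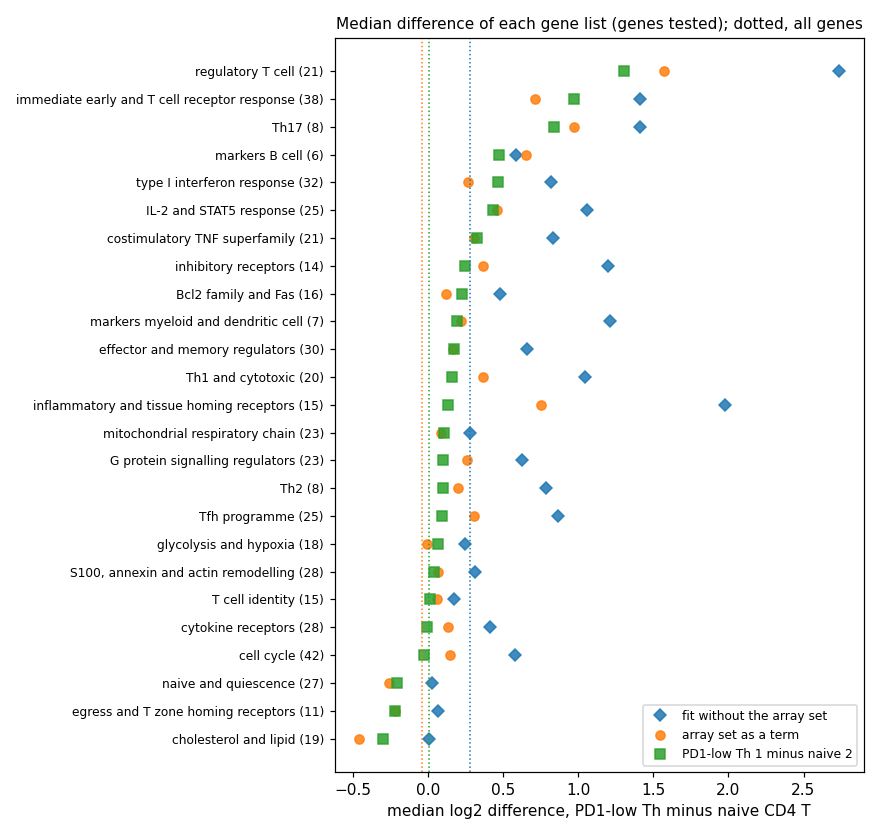
Median log2 difference, PD1-low Th minus naive, of each gene list (number of genes tested in brackets), for the fit without the array set (diamonds), the fit with it (circles) and the pair PD1-low Th 1 minus naive 2 (squares); dotted lines are the medians over all genes, 0.28, -0.04 and 0.01. Among the lists with at least 5 genes tested, regulatory T cell genes lie furthest to the right at 2.74, 1.57 and 1.30. The naive and quiescence list lies below the median of all genes for each of the 3.

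Other programmes gave few calls against naive cells. None of 8 Th2, 8 Th17 or 28 S100, annexin and actin genes passed by limma in either fit, and 2, 4 and 5 of them were higher at an unadjusted p under 0.05, where 3.86% of all genes were. Of 25 Tfh genes 1 passed with the term (Cxcr5), where 0.435% of all genes were higher. Against the CXCR5+ groups 17 were lower, where 6.62% of all genes were. Cxcr5 was itself a sort marker of the PD1-low Th and CXCR5+ pools. Bcl6, the factor that directs Tfh cells, had 12.20 and 12.44 in PD1-low Th cells, against 12.01 and 12.11 in naive cells and 13.82 to 14.93 on the CXCR5+ arrays. Maf, a factor for interleukin 21 and interleukin 10, had 9.89 and 12.21 in PD1-low Th cells, against 7.75 and 8.20 in naive cells and 13.68 to 14.47 on the CXCR5+ arrays. S100a6, a calcium-binding protein of memory T cells, had 7.33 and 10.83 in PD1-low Th cells, against 3.24 and 4.45 in naive cells (at least 17-fold higher, but not past the test, adjusted p = 0.162) and 12.47 to 14.31 on the CXCR5+ arrays.

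The CXCR5+ groups served to ask which differences from naive cells were shared with them. PD1-low Th cells differed from their mean in 1021 genes (10.3%), 366 higher (3.7%) and 655 lower (6.62%), and with the array set as a term in 1507 higher (15.2%) and 1857 lower (18.8%). This comparison uses the same PD1-low Th arrays as the one with naive cells, so the values stand side by side and are not independent. Of the 10 genes furthest above the CXCR5+ groups, Art4 alone had also passed against naive cells, and of the 10 furthest below none had.

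The genes highest over the CXCR5+ groups were mostly shared with naive cells. Pdlim4, which encodes a cytoskeletal adaptor, had 11.79 and 11.38 in PD1-low Th cells, against 11.79 and 11.37 in naive cells, and the CXCR5+ arrays were near background (2.03 to 2.57), so the level was at least 96-fold higher than in those groups. Amigo2, a cell adhesion gene, had 10.07 and 9.56 in PD1-low Th cells, against 9.93 and 9.57 in naive cells, and was at least 28.1-fold higher than in the CXCR5+ groups. Ampd1, an AMP deaminase, had 9.65 and 9.77 in PD1-low Th cells, against 10.41 and 10.46 in naive cells, and was at least 26.2-fold higher than in the CXCR5+ groups. Dntt encodes the enzyme that adds bases at antigen receptor joins in thymocytes. It had 11.99 and 11.24 in PD1-low Th cells, against 10.31 and 10.25 in naive cells and 2.17 to 6.45 on the CXCR5+ arrays.

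Genes furthest below the CXCR5+ groups were mostly at background in both PD1-low Th and naive cells, with Cxcr5 an exception. Il21, the cytokine of Tfh cells, had 2.39 and 2.68 in PD1-low Th cells, against 2.68 and 2.39 in naive cells, and was at least 87.2-fold lower than in the CXCR5+ groups (10.63 to 12.61). Cebpa, a transcription factor best known in myeloid cells, had 3.99 and 3.10 in PD1-low Th cells, against 2.08 and 3.78 in naive cells, and was at least 202-fold lower than in the CXCR5+ groups. Il1r2, a decoy receptor for interleukin 1, had 2.12 and 3.13 in PD1-low Th cells, against 2.12 and 2.12 in naive cells, and was at least 103-fold lower. Il4 had 2.01 and 2.22 in PD1-low Th cells, against 3.03 and 2.01 in naive cells and 5.49 to 12.51 on the CXCR5+ arrays.

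**Figure D5:**
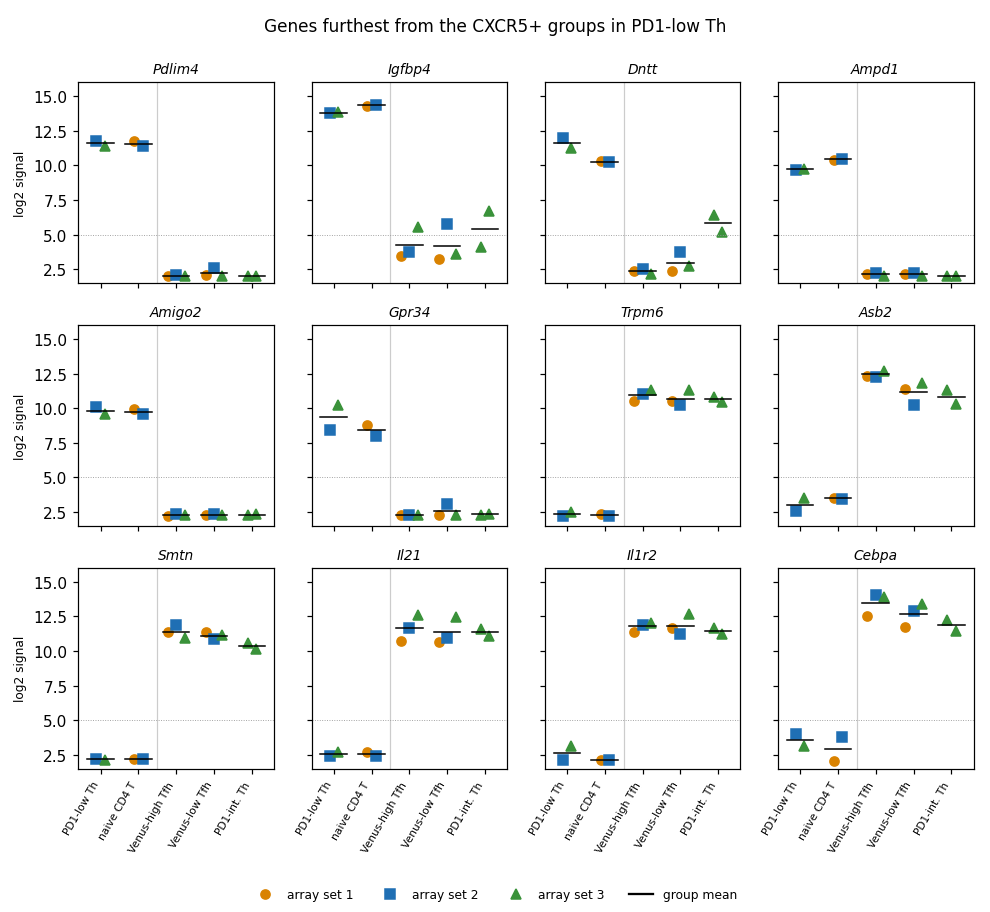
Log2 signal on every array of 6 genes far above and 6 far below the CXCR5+ groups in PD1-low Th cells, with PD1-low Th first, naive second and the CXCR5+ groups right of the grey line; bars are group means and the dotted line is log2 5. Pdlim4, Ampd1 and Amigo2 are above log2 9 in PD1-low Th and naive cells and below log2 3 on the CXCR5+ arrays, and Trpm6, Smtn, Il21 and Il1r2 are the reverse, below log2 4 in PD1-low Th and naive cells and above log2 10 on the CXCR5+ arrays.

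Markers of other cell types were low, with exceptions. Of 15 B cell markers with a named probe set, 3 to 5 reached log2 5 on the PD1-low Th arrays, against 2 to 4 on the naive arrays. Their summed log2 levels were 59.88 to 64.98 in PD1-low Th cells, against 53.17 to 58.91 in naive cells. Cd79a, Ms4a1 and Blnk, which define B cells, stayed under log2 3 on all 4 arrays. Other B cell genes had signal in both groups. Ighm read 12.77 and 12.93 in PD1-low Th cells, against 13.66 and 12.66 in naive cells. Ebf1 read 7.25 and 2.53 in PD1-low Th cells, against 7.54 and 6.90 in naive cells, and Pax5 read 5.68 and 2.03 in PD1-low Th cells, against 2.06 and 5.69 in naive cells. None of these 3 was higher on both PD1-low Th arrays than on both naive arrays. Cd79b was higher, at 5.83 and 8.99 in PD1-low Th cells, against 2.61 and 2.81 in naive cells, as was Cd74, the MHC class II chaperone, at 8.55 and 9.70 in PD1-low Th cells, against 3.76 and 6.84 in naive cells. Neither passed (adjusted p = 0.58 for Cd79b and 0.697 for Cd74), and their part in the differences above was not tested.

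Of 15 CD8, NK and gamma delta T cell markers, 3 reached log2 5 on each PD1-low Th array, against 1 to 2 on the naive arrays, with summed levels of 54.94 to 55.48 in PD1-low Th cells, against 45.65 to 52.32 in naive cells. Cd8a and Ncr1 stayed under log2 3 on all 4 arrays. Klrd1, an NK receptor chain, had 10.80 and 11.50 in PD1-low Th cells, against 9.45 and 9.73 in naive cells. Cd8b1 had 6.35 and 6.62 in PD1-low Th cells, against 3.08 and 5.15 in naive cells, and Cd160 had 5.79 and 7.15 in PD1-low Th cells, against 4.18 and 4.85 in naive cells. None of these 3 passed in either fit, and their part in the differences above was not tested. Of 23 myeloid and dendritic markers, 5 to 6 reached log2 5 in PD1-low Th cells, against 4 to 5 in naive cells, with summed levels of 92.32 to 96.42 in PD1-low Th cells, against 87.20 to 88.91 in naive cells. Lyz2, Cd14, Itgam and Csf1r were at background on all 4 arrays. Ctss lay at 14.34 and 14.64 in PD1-low Th cells, against 14.21 and 14.15 in naive cells. Cst3 had 12.27 and 12.88 in PD1-low Th cells, against 10.61 and 12.13 in naive cells, and Bst2 had 11.32 and 11.76 in PD1-low Th cells, against 9.57 and 10.85 in naive cells. Cd86, described above, was the only member of this list past the test with the array set as a term. Erythroid and stromal markers were not higher in PD1-low Th cells: their sums were 27.33 to 29.29 and 36.89 to 37.10 in PD1-low Th cells, against 31.81 to 32.41 and 40.06 to 43.30 in naive cells. Car2, a carbonic anhydrase on the erythroid list, had 5.64 and 4.34 in PD1-low Th cells, against 6.70 and 7.51 in naive cells.

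The comparison with naive cells rests on few arrays. Leaving out PD1-low Th 2 left 0 genes past the test (181 at an unadjusted p under 0.05 by limma), leaving out PD1-low Th 1 gave 41, and leaving out naive 1 or naive 2 gave 2 and 10. Of the 8 genes, Art4 and Auts2 kept their call without naive 1 and without naive 2, and Egln3 kept it without naive 2. With the 4 arrays of these groups alone the fit called 0 genes, with 241 at an unadjusted p under 0.05.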

How the data were processed

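Per the labels, each sample was pooled sorted cells, with total RNA amplified and hybridised to an Affymetrix mouse array. The authors deposited log2 signals per probe set, made with GCRMA per the submitters' processing notes, without a version or a statement of the arrays normalised as a group. Of 45101 probe sets, 34958 had 1 gene symbol in the platform annotation, 932 had several and 9211 had none; only those with 1 symbol were used. Each gene was represented by its probe set of highest mean, after dropping probe sets without a minimum of 2 arrays at log2 5 (9892 genes). All 12 arrays entered 1 limma fit of 5 groups (limma 3.58.1, R 4.3.3; 7 residual degrees of freedom, 5 with the array set as a term), with 2-sided moderated tests and Benjamini-Hochberg adjustment over all genes, at an adjusted p under 0.05. Array sets came from clustering the arrays' quantiles into 3. A fold is given as a bound where a group was under log2 5 on all its arrays, using log2 5 as its floor. The fit was tested on simulated data. Figures were drawn with matplotlib 3.10.9.

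The genes named were the 15 largest rises and falls past the threshold with separate arrays, or all if fewer; up to 5 called members of each list, else its 2 members of lowest p; and the 10 largest each way against the CXCR5+ groups. Others, mainly known members of a list, were named after their values were seen. The members, markers and lists were chosen with earlier results of these data known. Alternatives changed the filter, floor, normalisation, array set, replicate number, arrays in the fit, variance model, probe set and fold, and left out each array in turn. Whether numbers 1 and 2 pair the samples could not be decided. Deviations from the group means correlated at -0.77 between arrays of the same number and 0.77 between crossed numbers. With 2 arrays a group these values are mirror images, and PD1-low Th 1 and naive 2 share an array set. One item is not reported here.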

Additional observations from a re-analysis of the deposited data

How the results depend on the processing

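The count against naive cells moved with the processing. The 8 genes became 20 with no filter on low values and 5 with log2 6 as the minimum. Quantile normalization again gave 37 (75.7% higher, against 87.5%). Array set gave 56 as a fixed term (76.8% higher) and 104 as a random block (79.8% higher). Without the probe sets displaced in set 2 the count was 17, and with the replicate block 25. It was 2 with a gene's probe sets averaged and 2 with treat at a log2 fold change of 1. Only the 4 arrays gave 0 (241 at an unadjusted p under 0.05). The shared array set alone holds 1 PD1-low Th array and 1 naive array, so no count is given for it. The share of higher genes was 65.0% with no filter and 100% with log2 6 as the minimum or the floor. Leaving out 1 array in turn gave 0 to 41 genes (0 without PD1-low Th 2, with 181 at an unadjusted p under 0.05, and 41 without PD1-low Th 1). Added after seeing the data, a crossed replicate block on the 4 arrays called 0 (369 at an unadjusted p under 0.05), and array set with quantile normalization 75.

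Against the CXCR5+ groups, 1021 genes became 1635 with quantile normalization again, 3364 with array set as a fixed term, 3409 with it as a random block, 1771 with the replicate block (53.6% higher, against 35.8%), 420 with treat, and 445 to 630 when a PD1-low Th array was left out. Among 158 differences of named genes, 2783 of 3194 alternative values kept their direction and side of the threshold, 69 no longer passed, 218 newly passed, 122 moved and 2 reversed: Tmem161b, 0.10 in the main fit, was -0.92 with array set as a fixed term and -0.95 with quantile normalization added. The cause was not tested. Whether the numbers pair the samples could not be decided, so the replicate block is an alternative only. Signal near the background limits Egln3, Zcchc24 and Auts2 to bounds.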
